A study of Homo sapiens with 6 samples.

Results

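Toll-like receptors and the proteins that carry their signal were followed in SW780, a human bladder cancer cell line of the luminal type, with and without exposure to RC48. The genes were chosen by name as 10 parts of 1 signaling route. They were the receptors TLR2 and TLR3, the adaptors MYD88 and TICAM1, the ubiquitin ligase TRAF6 and the kinase MAP3K8. The rest were IRAK1, IRAK2, IRAK3 and IRAK4 of the IRAK family. Of these 10 genes, 9 were among the 16390 genes listed in the files, and all 9 passed the filter on low counts. IRAK3 was not listed.

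Toll-like receptors recognise molecules of microbes or of damaged cells. Most of them, and the receptors of IL-1, pass their signal through the adaptor MYD88, which binds IRAK4, which in turn binds and phosphorylates IRAK1 or IRAK2. These kinases engage TRAF6, whose ubiquitin chains lead to the IKK complex, to NF-κB and to the MAP kinases. TLR3, which senses double-stranded RNA, uses the adaptor TICAM1 (also called TRIF) in place of MYD88 and leads in addition to interferons. In epithelial cells the route is known for the release of chemokines and other inflammatory mediators.

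RC48 (disitamab vedotin) is an antibody against ERBB2 loaded with monomethyl auristatin E, which blocks microtubules. The RNA-sequencing set held 3 libraries of Control SW780 cells and 3 of SW780 cells exposed to RC48, at 25 µg/ml in the methods of the study, with no genetic change named for either group. All libraries came from 1 cell line. The labels do not say whether they came from separate cultures, so that the p-values measure only the spread between these libraries, and neither the labels nor the methods name the time of exposure.

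The estimated counts of the libraries summed to between 16453233 and 17988030. All 6 luminal urothelial markers were listed, and their summed level was 761.1 to 776.4 CPM (counts relative to the TMM-scaled size of the library) in Control and 696.2 to 867.4 CPM with RC48. Of 6 basal markers, 4 were listed, and they summed to 333.3 to 352.0 CPM in Control and 309.8 to 343.0 CPM with RC48. ERBB2, the target of RC48, had 202.7, 208.4 and 203.7 CPM in Control and 277.1, 184.7 and 224.6 CPM with RC48. KRT20, a marker of luminal cells, was below 3 CPM in every library and was the 1 luminal marker called, lower with RC48 (log2 fold change −1.56, adjusted p = 0.0489, edgeR). Control replicates 1 and 2 differed least, their chi-square being 1.5 per degree of freedom over 11480 genes, against 9.95 or more for every other pair of replicates within a group. The RC48 libraries differed in a way that followed the GC content of the transcripts. The log2 ratio to the mean of Control had a Spearman's rho with GC content, across 13016 genes that are not independent of each other, of 0.74 in RC48 replicate 1, −0.01 in replicate 2 and 0.57 in replicate 3. Each pathway gene is therefore given also after a correction for GC content.

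Exposure to RC48 went along with higher transcript levels of IRAK2 and MAP3K8. IRAK2 was 1.60-fold higher (95% interval 1.35 to 1.90) and MAP3K8 1.76-fold higher (1.36 to 2.27). MYD88, TICAM1 and TRAF6 were above every Control library in every RC48 library, but their adjusted p-values were 0.141, 0.156 and 0.26 in edgeR's quasi-likelihood test. The receptors TLR2 and TLR3 and the kinases IRAK1 and IRAK4 overlapped between the groups. In bulk RNA, a change in the cells that carry a transcript and a change in the transcript per cell cannot be told apart.

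In all, 2 of the 9 genes tested were called higher (22.2%) and 0 lower, with the threshold at an adjusted p-value of 0.05 in edgeR's quasi-likelihood test (Benjamini-Hochberg over all 13055 genes tested, n = 3 libraries per group). Among all genes, 1.98% were called higher and 0.230% lower. Of the 9, 4 had an unadjusted p-value under 0.05 and were higher, namely IRAK2, MAP3K8, MYD88 and TICAM1, and none was lower at that level. Among all genes, 11.9% were higher and 7.21% lower at an unadjusted p-value under 0.05. DESeq2 called 3 of the 9 higher, the third being MYD88, and 0 lower, against 4.11% of all genes higher and 1.59% lower. After the correction for GC content, 3 of the 9 (33.3%) were called higher, MYD88 being the third, and 0 lower, against 4.15% of all genes higher and 3.34% lower. The groups did not overlap in 5 of the 9 genes (55.6%), all with RC48 above Control, while this was so for 17.4% of all genes. In 14.1% of all genes every RC48 library lay below every Control library, and none of the 9 did so. With the correction for GC content the groups were apart in 5 genes with RC48 above, TLR3 taking the place of TICAM1, and in IRAK1 with RC48 below, against 14.5% of all genes above and 20.0% below with that correction. The median log2 fold change of the 9 genes was 0.34, against 0.02 for all genes.

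The number of pathway genes called depended on single libraries. It was 0 without Control replicate 1, 0 without Control replicate 2, 0 without Control replicate 3 and 0 without RC48 replicate 3, and it was 5 without RC48 replicate 2. Over all genes, 288 were called with all libraries, between 68 and 78 without 1 Control library, 897 without RC48 replicate 1, 3726 without RC48 replicate 2 and 93 without RC48 replicate 3. With the correction for GC content, IRAK2 and MAP3K8 were called whichever library was left out.

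**Figure D1:**
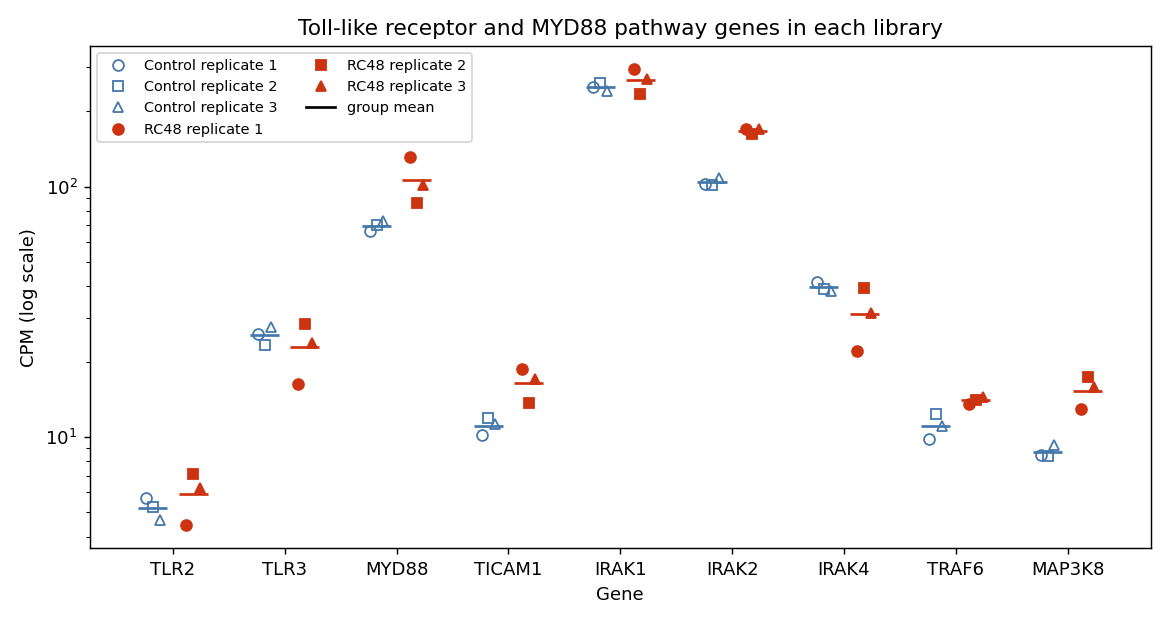
Level of each pathway gene in each library, in CPM on a log axis. Open blue symbols are the 3 Control libraries, filled red symbols the 3 RC48 libraries, and lines the group means. IRAK2 lies between 101.5 and 108.7 CPM in Control and between 162.0 and 170.2 CPM with RC48, while TLR3 and IRAK4 have their lowest value in RC48 replicate 1.

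In Control cells, the pathway genes differed widely in level. Levels of different genes are compared in TPM, which takes transcript length into account. IRAK1 was the most abundant, at 134.8 ± 3.86 TPM (mean ± SD, n = 3 Control libraries), above 92.4% of the genes listed. IRAK2 at 58.8 ± 5.34 TPM and MYD88 at 52.8 ± 4.81 TPM followed, and these neighbours overlapped between libraries. IRAK4 at 17.6 ± 0.76 TPM and TLR3 at 16.5 ± 2.22 TPM also overlapped with each other.

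TICAM1 was lower at 8.11 ± 0.819 TPM (n = 3), and MAP3K8 was at 6.17 ± 0.691 TPM. TLR2 at 2.8 ± 0.143 TPM and TRAF6 at 2.57 ± 0.327 TPM stood lowest and overlapped with each other. The mean of IRAK1 was 52.5 times that of TRAF6. In Control cells the adaptor MYD88 thus stood well above the receptor TLR2.

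TLR2 (NCBI gene 7097; GRCh38 chr4:153684280-153710637) is a receptor of the cell surface for bacterial lipoproteins. Its level was 5.72, 5.27 and 4.65 CPM in Control replicates 1, 2 and 3 and 4.43, 7.14 and 6.23 CPM in RC48 replicates 1, 2 and 3, from 73 to 125 counts per library. RC48 replicate 1 was the lowest of all libraries and RC48 replicates 2 and 3 the highest, so that the groups overlapped. Its log2 fold change was 0.19 (standard error 0.21, 95% interval −0.31 to 0.68, adjusted p = 0.572, edgeR), and 0.27 (adjusted p = 0.282, edgeR) with the correction for GC content. Its sign turned in limma on the deposited TPM, which lacks RC48 replicate 2. The gene overlaps RNF175 in the annotation, and whether the counting used the strand is not given in the sources used here.

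TLR3 (NCBI gene 7098; chr4:186069156-186088073) is the receptor for double-stranded RNA in endosomes. It had 25.7, 23.3 and 27.6 CPM in Control and 16.3, 28.3 and 23.8 CPM with RC48. The lowest and the highest value of all libraries were both in the RC48 group. The log2 fold change was −0.16 (standard error 0.21, 95% interval −0.65 to 0.32, adjusted p = 0.613, edgeR) and turned to 0.16 (adjusted p = 0.297, edgeR) with the correction for GC content, and to 0.02 without RC48 replicate 1. A GC content of 40.2% places TLR3 among the transcripts that were low in that library.

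MYD88 (NCBI gene 4615; chr3:38138661-38143022) is the adaptor shared by most Toll-like receptors and the receptors of IL-1. It had 66.6, 70.3 and 72.7 CPM in Control and 131.1, 86.2 and 101.7 CPM with RC48, from 1151 to 2158 counts per library. Every RC48 library was above every Control library, and RC48 replicate 1 was the highest. The log2 fold change was 0.61 (standard error 0.17, 95% interval 0.22 to 0.99), with an unadjusted p of 0.00716 and an adjusted p of 0.141 in edgeR's quasi-likelihood test, so that MYD88 was not called. With the correction for GC content it was called, at a log2 fold change of 0.37 (95% interval 0.17 to 0.56, adjusted p = 0.0379, edgeR). It was also called without RC48 replicate 1 (log2 fold change 0.42, adjusted p = 0.0384) and without RC48 replicate 2 (0.73, adjusted p = 0.0196), in edgeR without the GC correction.

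The call of MYD88 depended on which libraries entered. Without the GC correction, its adjusted p in edgeR was 0.49, 0.443 and 0.409 with Control replicate 1, 2 or 3 left out and 0.381 with RC48 replicate 3 left out. With the GC correction, the same libraries left out gave 0.199, 0.16, 0.0778 and 0.14, so that the corrected call was lost each time. Its log2 fold change stayed between 0.32 and 0.73 in the 23 alternatives.

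TICAM1 (NCBI gene 148022; chr19:4815932-4831712) is the adaptor of TLR3. Its level was 10.2, 11.9 and 11.3 CPM in Control and 18.6, 13.7 and 17 CPM with RC48. The groups did not overlap, and RC48 replicate 2 lay closest to Control. TICAM1 had a log2 fold change of 0.56 (standard error 0.16, 95% interval 0.18 to 0.94, adjusted p = 0.156, edgeR). With the correction for GC content it was 0.23 (adjusted p = 0.252, edgeR) and the groups overlapped, whereas without RC48 replicate 2 TICAM1 was called (log2 fold change 0.68, adjusted p = 0.024, edgeR).

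IRAK4 (NCBI gene 51135; chr12:43758951-43789541) is the first kinase to bind MYD88. It had 41.6, 38.9 and 38.4 CPM in Control and 22.1, 39.5 and 31.2 CPM with RC48. RC48 replicates 1 and 3 were below all Control libraries and RC48 replicate 2 was within their range. For IRAK4 this gave a log2 fold change of −0.36 (standard error 0.21, 95% interval −0.84 to 0.12, adjusted p = 0.326, edgeR). Without RC48 replicate 2, IRAK4 was called lower at −0.57 (adjusted p = 0.0425, edgeR). With the correction for GC content the change was −0.04 (adjusted p = 0.769, edgeR), and the log2 ratio of RC48 replicate 1 to Control moved from −0.84 to −0.05.

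IRAK1 (NCBI gene 3654; chrX:154010507-154019902) is a kinase phosphorylated by IRAK4 that binds TRAF6. It had 249.5, 259.4 and 241.2 CPM in Control and 296.0, 234.7 and 268.6 CPM with RC48. The groups overlapped, with RC48 replicate 2 the lowest library and RC48 replicate 1 the highest. IRAK1 had a log2 fold change of 0.09 (standard error 0.12, 95% interval −0.19 to 0.38, adjusted p = 0.632, edgeR), which turned to −0.24 (95% interval −0.46 to −0.01, adjusted p = 0.172, edgeR) with the correction for GC content. The GC content of IRAK1 was 63.2%, the same as that of TICAM1.

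IRAK2 (NCBI gene 3656; chr3:10164919-10243745) is another kinase below IRAK4 and is known to sustain the later phase of the signal. It had 102.9, 101.5 and 108.7 CPM in Control and 170.2, 162.0 and 170.1 CPM with RC48, from 1752 to 3055 counts per library. The RC48 libraries lay close together and well above all Control libraries. The mean was 104.4 ± 3.82 CPM in Control and 167.4 ± 4.71 CPM with RC48 (SD, n = 3 each), which is 0.68 higher on the log2 scale (95% interval 0.44 to 0.93, standard error 0.11, adjusted p = 0.0192 in edgeR). The exact permutation test gave p = 0.1, the smallest value that 3 against 3 libraries allow. IRAK2 overlaps LOC124906338 in the annotation, a gene not listed in these data, and whether the counting used the strand is not given.

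The rise of IRAK2 was alike in the 3 RC48 libraries, with log2 ratios to Control of 0.71, 0.63 and 0.70. Corrected for GC content, IRAK2 was 0.55 higher on the log2 scale (95% interval 0.38 to 0.72, adjusted p = 0.00412, edgeR). With 1 library left out and no GC correction, IRAK2 had a log2 fold change between 0.65 and 0.71. Without Control replicate 1, 2 or 3 its adjusted p in edgeR was then 0.195, 0.185 or 0.108, and leaving out RC48 replicate 3 gave 0.164, all short of the threshold.

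TRAF6 (NCBI gene 7189; chr11:36483769-36510272) is the ubiquitin ligase on which the IRAK kinases converge. Its level was 9.77, 12.3 and 11.1 CPM in Control and 13.5, 14 and 14.5 CPM with RC48. The RC48 libraries were all above the Control libraries, by a narrow margin over Control replicate 2. The log2 fold change was 0.34 (standard error 0.15, unadjusted p = 0.0502, adjusted p = 0.26, edgeR), and 0.54 (adjusted p = 0.0678, edgeR) with the correction for GC content.

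MAP3K8 (NCBI gene 1326; chr10:30434021-30461833), also called TPL2 or COT, is a kinase held inactive by the NFKB1 precursor until the IKK complex releases it, and it then activates the ERK branch. Its level was 8.5, 8.4 and 9.3 CPM in Control and 12.9, 17.3 and 15.8 CPM with RC48, from 145 to 303 counts per library. The groups did not overlap, and RC48 replicate 1 was the lowest of the RC48 libraries. The mean was 8.73 ± 0.495 CPM in Control and 15.3 ± 2.21 CPM with RC48 (SD, n = 3 each), which is 0.81 higher on the log2 scale (95% interval 0.44 to 1.18, standard error 0.16, adjusted p = 0.0487 in edgeR). The exact permutation test again gave p = 0.1.

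MAP3K8 lay near the threshold and was called in 12 of 23 alternatives. Among the 23, 7 were the GC correction with all libraries or with 1 left out, and MAP3K8 was called in all 7. Without that correction, the call was lost without Control replicate 1, 2 or 3 (adjusted p = 0.289, 0.291 and 0.216, edgeR) and without RC48 replicate 3 (adjusted p = 0.27). Corrected for GC content, MAP3K8 was 0.88 higher on the log2 scale (95% interval 0.65 to 1.11, adjusted p = 0.0015, edgeR). The log2 ratios to Control, 0.57, 0.98 and 0.85 in RC48 replicates 1, 2 and 3, became 0.81, 0.92 and 0.90.

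**Figure D2:**
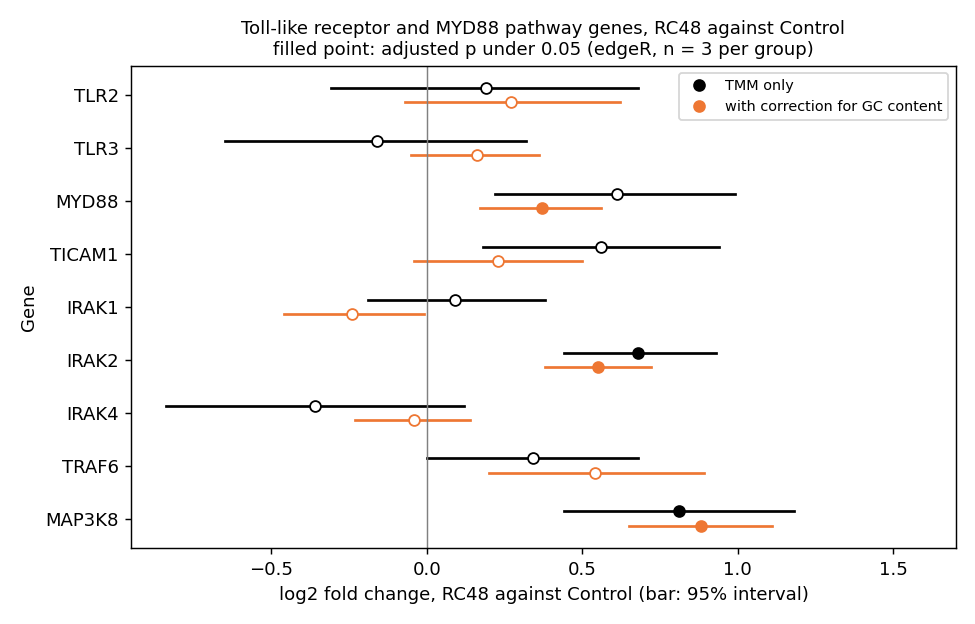
Log2 fold change of each pathway gene, RC48 against Control, with its 95% interval (edgeR, 3 libraries per group). Black is without and orange with the correction for GC content, and filled points have an adjusted p under 0.05. IRAK2 and MAP3K8 are filled in both, MYD88 with the correction alone, and TLR3 and IRAK1 change sign.

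The GC content of the pathway genes ran from 40.2% in TLR3 to 63.2% in TICAM1 and IRAK1, and the genes followed the trend of all genes in part. In RC48 replicate 1, the median log2 ratio to Control was −1.0 in the tenth part of genes with the lowest GC content and 0.66 in that with the highest. TLR3 and IRAK4, near the low end, had log2 ratios of −0.64 and −0.84 in that library. In RC48 replicate 2, which had no such trend, TLR3 was at 0.15 and IRAK4 at 0.00.

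Against this trend, TRAF6 and MAP3K8 had low GC contents of 43.2% and 46.2% and were higher in RC48 replicate 1, by log2 ratios of 0.29 and 0.57. MYD88, with a GC content of 56.0%, had a log2 ratio of 0.91 in RC48 replicate 1, 0.30 in replicate 2 and 0.54 in replicate 3, which became 0.46, 0.27 and 0.37 after the correction. What gave the trend in these libraries was not tested.

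**Figure D3:**
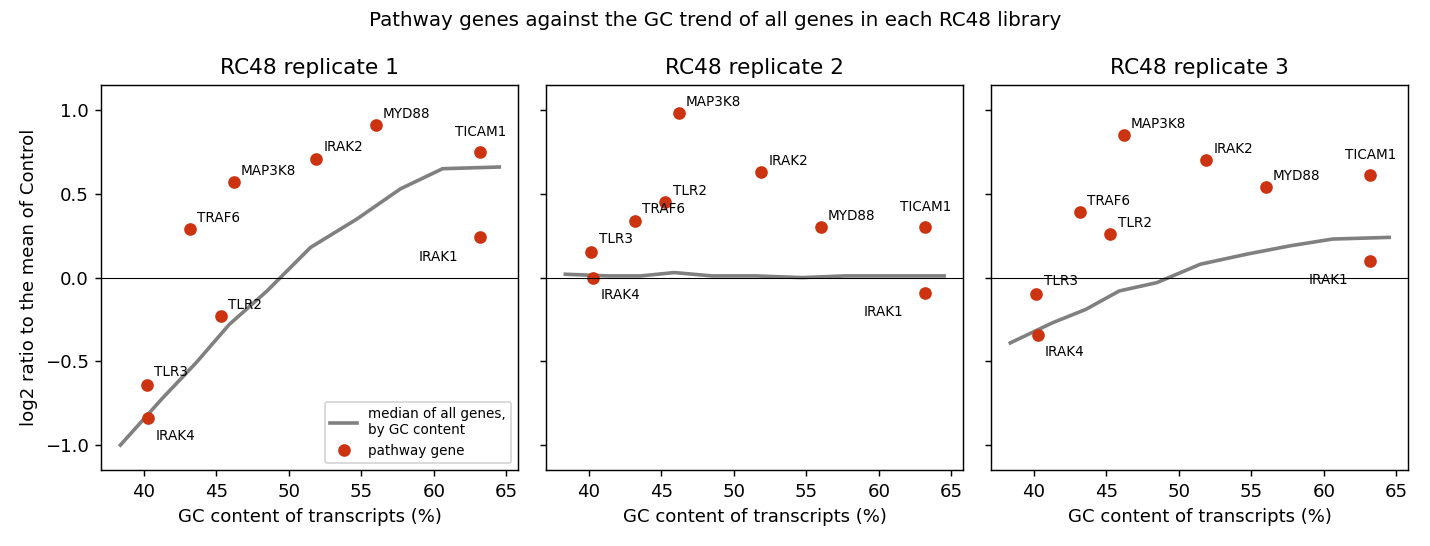
Ratio of each RC48 library to the Control mean (log2) against the GC content of the transcripts, for each pathway gene (red points) and as the median of all genes grouped by GC content (grey line). The grey line rises from −1.0 to 0.66 in RC48 replicate 1, is flat in replicate 2 and rises from −0.39 to 0.24 in replicate 3.

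The start of each gene was examined for motifs of the factors that this route and interferon activate, over 250 bases before to 50 bases after the start in RefSeq (GRCh38.p14). The 10 genes had 12 windows, MAP3K8 having 3. The letters searched on both strands were GAAANNGAA, the core of the interferon-stimulated response element (8.11% of 35116 promoters held it), TGANTCA, the AP-1 site (7.71%), and the κB consensus (11.3%). The 100 bases before the start are shown for the genes called with the GC correction, on the strand of the gene, with matches in capitals: the element core in MYD88, the κB consensus in MAP3K8, and no match in IRAK2.
MYD88 (chr3:38138561-38138660): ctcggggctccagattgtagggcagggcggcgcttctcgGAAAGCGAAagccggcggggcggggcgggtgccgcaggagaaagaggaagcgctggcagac
MAP3K8 (first window, chr10:30433921-30434020): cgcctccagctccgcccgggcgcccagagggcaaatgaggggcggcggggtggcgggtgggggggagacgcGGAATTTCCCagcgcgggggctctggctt
IRAK2 (chr3:10164819-10164918): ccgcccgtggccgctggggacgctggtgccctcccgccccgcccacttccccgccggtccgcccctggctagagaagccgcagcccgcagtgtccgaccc

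The match in MYD88 lay 61 to 53 bases before the start and that in MAP3K8 29 to 20 bases before it, on the opposite strand. Beyond these stretches, the windows of MAP3K8 held both other motifs and a further κB consensus match. TLR3 held the element core across its start, here in capitals and read on the opposite strand, within 30 bases.
TLR3 (chr4:186069143-186069172): aagctttactTTCACTTTCgagagtgccgt

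TICAM1 held 1 match to the κB consensus, and IRAK1 held that consensus and the AP-1 site. TLR2, IRAK2, IRAK3, IRAK4 and TRAF6 held none of the 3 motifs in these windows. A match is a run of letters and not a bound site, and the absence of one says nothing of the factor.

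The profile of MYD88 over the 6 libraries was compared with those of 9996 genes with at least 10 CPM. The nearest genes, by root mean square difference of log2 CPM centred on Control, were FAM102A (0.030), PLCH2 (0.040) and APP (0.044). For MAP3K8 they were HSPB8 (0.081), COL5A1 (0.086) and CDH2 (0.087). FAM102A had a mean of 108.1 CPM in Control and 167.4 CPM with RC48, and HSPB8 25.1 and 46.6 CPM. These profiles were not corrected for GC content, and what made them alike was not tested.

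The rest of the route was read from 9 lists by role, with 85 distinct genes of which 81 were listed and 69 tested. Of these 69, 19 were called higher and 1 lower, against 1.98% and 0.230% of all genes, and these shares hold beside each list below. Most of the called genes lay in the lists of genes switched on through MYD88 or TICAM1. Other inputs can switch these genes on as well, and which input acted here was not tested. The counts were 23 higher and 2 lower with the correction for GC content, against 4.15% and 3.34% of all genes. The number called was 13 without any 1 of the Control libraries, beside 68 to 78 of the 13197 to 13218 genes tested. Without RC48 replicate 2 it was 36, of which 29 were higher and 7 lower. Over all genes, 3726 of 13185 were then called, 1862 higher and 1864 lower. DESeq2 called 23 higher and 1 lower, against 4.11% and 1.59% of all genes.

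Among other Toll-like receptors and their accessory proteins, 0 of 9 genes tested were called by edgeR and 0 by DESeq2 (median log2 fold change 0.24). At an unadjusted p under 0.05 in edgeR, 1 was higher and 1 lower, against 11.9% and 7.21% of all genes. TLR7 alone was called with the correction for GC content, in edgeR (log2 fold change 0.67, adjusted p = 0.0394). TLR4, the receptor for lipopolysaccharide, had 92.2, 89.2 and 113.6 CPM in Control and 67.1, 109.5 and 94.5 CPM with RC48, so that the groups overlapped. LY96, the partner that TLR4 needs to bind lipopolysaccharide, had 2 counts in all Control libraries together and 3 in those of RC48. HSP90B1, the chaperone of the receptors, which had the highest mean CPM in this list, had a log2 fold change of −0.47 (adjusted p = 0.244, edgeR). TLR8 was not listed, and TLR9, TLR10, CD180 and LBP were too low to test.

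Among the IL-1 family receptors that use MYD88, 0 of 3 genes tested were called by edgeR (0 by DESeq2 and 0 at an unadjusted p under 0.05; median 0.15), and IL1RAP, with the highest mean CPM, was at −0.37 (adjusted p = 0.371, edgeR). Among the other adaptors and inhibitors of the route, 0 of 4 were called by edgeR (median 0.28). DESeq2 called 0, and 0 had an unadjusted p under 0.05 in edgeR. TOLLIP, an inhibitor of the IRAK kinases, was at 0.37 (adjusted p = 0.3, edgeR). In the list of ubiquitin ligases and the TAK1 complex, which pass the signal from TRAF6, 1 of 10 genes was called (median −0.13). That gene was PELI2, a ligase that acts on IRAK proteins, with 3.82, 3.59 and 4 CPM in Control and 1.88, 2.23 and 1.61 CPM with RC48. It fell by 1.00 on the log2 scale (standard error 0.20, adjusted p = 0.0497, edgeR), and by 1.16 (adjusted p = 0.0108) with the correction for GC content. PELI2 was not called with no filter, with the replicate block, or with a Control library or RC48 replicate 3 left out. With the GC correction its call was lost without Control replicate 1 or 3 or RC48 replicate 3.

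In the IKK complex and the kinases next to it, 1 of 8 genes was called (median 0.05). IKBKE, a kinase of the interferon branch below TICAM1, had 14.3, 14.8 and 15.1 CPM in Control and 47, 32 and 31.5 CPM with RC48. All RC48 libraries were above Control, at a log2 fold change of 1.32 with a standard error of 0.19 (adjusted p = 0.0128, edgeR). IKBKB, the catalytic subunit for the classical signal, was at 0.06 (adjusted p = 0.752, edgeR). TRAF3, which links TICAM1 to this branch and was singled out after its values were seen, had a log2 fold change of 0.66 (adjusted p = 0.0805, edgeR) and 0.49 (adjusted p = 0.0167) with the correction for GC content.

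Of the partners of MAP3K8 and the kinases below it, 0 of 8 were called by edgeR (median 0.30). At an unadjusted p under 0.05 in edgeR, 4 were higher and 1 lower, against 11.9% and 7.21% of all genes. DESeq2 called 2, NFKB1 and MAP2K3, higher, against 4.11% of all genes. NFKB1, which holds MAP3K8, had 82.6, 78.8 and 82.2 CPM in Control and 108.8, 103.5 and 102.9 CPM with RC48. The groups did not overlap, and the log2 fold change of NFKB1 was 0.37 (adjusted p = 0.154, edgeR), or 0.35 (adjusted p = 0.0268) with the correction for GC content. MAP2K2, with the highest mean CPM over the 6 libraries in the list, was at 0.61 (adjusted p = 0.223, edgeR).

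Among the transcription factors at the end of the route, 2 of 8 were called (median 0.27). IRF7, a factor that drives interferon genes, had 3.18, 3.53 and 2.94 CPM in Control and 10.3, 7.02 and 8.96 CPM with RC48, a log2 fold change of 1.44 (adjusted p = 0.0117, edgeR). JUN, a part of AP-1, rose by 0.65 on the log2 scale (adjusted p = 0.0267, edgeR) but was not called with the correction for GC content (0.42, adjusted p = 0.103). FOS, its partner, was at −0.19 (adjusted p = 0.326, edgeR), and was called lower, at −0.49 (adjusted p = 0.0254), with that correction.

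Of the genes switched on through MYD88, 10 of 12 tested were called higher and 0 lower (median log2 fold change 3.28). TNFAIP3, an inhibitor that removes ubiquitin chains made by TRAF6, had 5.26, 4.46 and 5.18 CPM in Control and 53.1, 62.6 and 58.1 CPM with RC48, a log2 fold change of 3.54 (adjusted p = 7.7e-05, edgeR). The chemokine genes CXCL1, CXCL3 and CCL20 had summed counts of 39, 5 and 5 in Control and of 4067, 177 and 189 with RC48. ICAM1, an adhesion protein, rose by 2.59 on the log2 scale (adjusted p = 6.4e-04, edgeR).

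CXCL8, BIRC3, IL1B, NFKBIA and TNF were called as well, the last 4 being named here in addition to the rule. PTGS2 (0.08, adjusted p = 0.803, edgeR) and NFKBIZ (0.09, adjusted p = 0.69) were not called, and both are known as genes of this route. With the correction for GC content PTGS2 was called higher, at 0.52 (adjusted p = 0.0298, edgeR), and 11 of the 12 genes in all. CXCL2 was not listed, and IL6 had 1 count in all of Control and 11 with RC48, too few to be tested. These genes also answer to TNF and to other inputs of NF-κB, and the lists do not tell the inputs apart.

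Of the genes switched on through TICAM1, 6 of 8 tested were called higher and 0 lower (median 1.57). MX1, an antiviral protein induced by interferon, had 26.7, 26 and 27.7 CPM in Control and 116.6, 110.2 and 118.3 CPM with RC48, a log2 fold change of 2.10 (adjusted p = 2.3e-04, edgeR). RSAD2 rose by 2.74, IFIT1 by 1.49, ISG15 by 1.20 and IFIT3 by 0.98 on the log2 scale (adjusted p = 5.8e-04, 0.023, 0.0325 and 0.00683, edgeR). CXCL10 had a summed count of 4 in Control and of 115 with RC48. IFIT2 was at 0.39 (adjusted p = 0.26, edgeR) and was called higher, at 0.66 (adjusted p = 0.00816), with the correction for GC content. IFNB1, the interferon made below TICAM1, was not listed, and IFNL1, IFNL2 and IFNL3 had 1 to 3 counts per group. These genes are induced by interferon from any source, so that this list too is not particular to TICAM1.

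**Figure D4:**
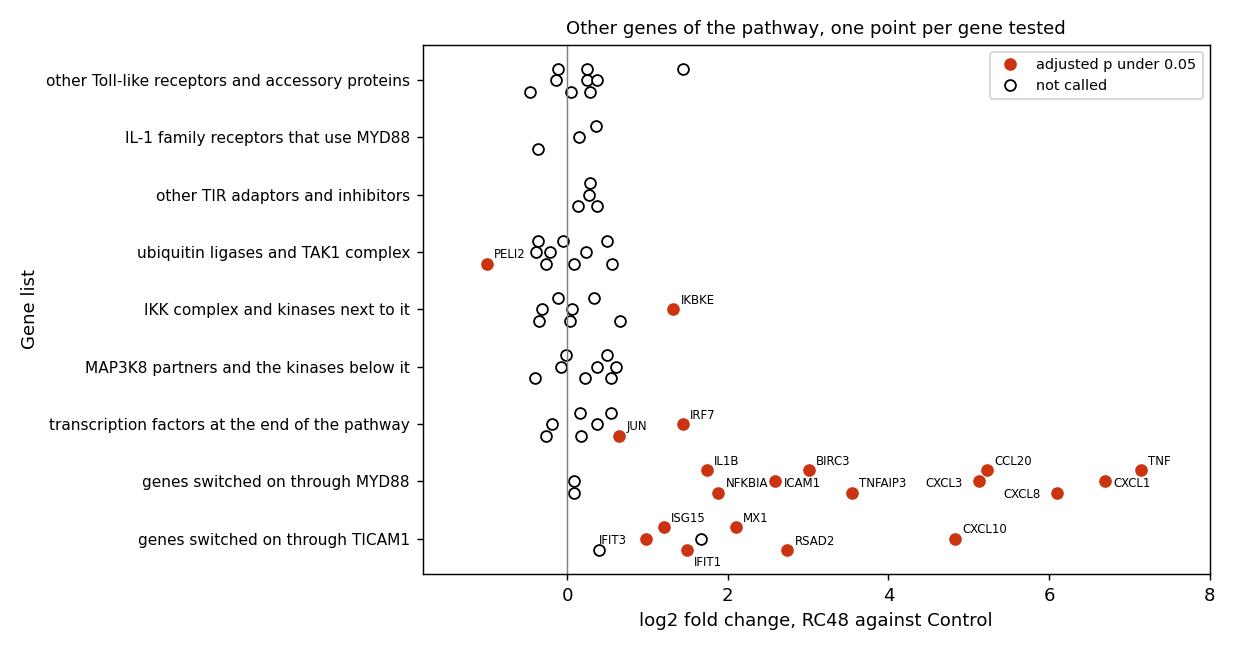
Log2 fold change, RC48 against Control, of each tested gene in 9 lists of the route by role. Filled red points have an adjusted p under 0.05 (edgeR) and are named. The 10 filled points of the genes switched on through MYD88 and the 6 of those switched on through TICAM1 all lie to the right of 0, while every other list has at most 2 filled points, among them IKBKE at 1.32 and PELI2 to the left at −1.0.

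Toll-like receptors are also abundant in leukocytes, so markers of these cells were read beside the results. Of 12 leukocyte markers, 8 were listed, and their summed level was 17.6 to 18.1 CPM in Control and 21.7 to 40.8 CPM with RC48, most of it from CD68. PTPRC, which all leukocytes carry, had 2 counts over all libraries, and CSF1R, AIF1 and FCER1G had at most 5 each. MS4A1, TYROBP and SPI1 were among those not listed. ITGAM was the 1 marker called, with 0, 5 and 0 counts in Control and 69, 54 and 65 with RC48 (adjusted p = 0.0074, edgeR). Fibroblast markers summed to 175.7 to 180.7 CPM in Control and 87.2 to 126.4 CPM with RC48, mostly from LUM, and endothelial markers to 27.9 to 29.7 and 18.4 to 24.9 CPM. Their part in the values of IRAK2, MAP3K8 and MYD88 was not tested.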

How the data were processed

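RNA of SW780 cells was sequenced in 6 libraries, 3 Control and 3 RC48. The authors filtered the reads, mapped them with Bowtie2 to a reference gene sequence and counted them with RSEM, and the submitters' processing notes name hg38. Versions and annotation are not given in the sources used here. The deposited values are estimated counts per gene (expected counts, not normalized) for all libraries, and TPM computed by the authors for 5 of them, RC48 replicate 2 being without TPM here.

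Estimated counts were rounded, filtered with filterByExpr, scaled by TMM and compared, RC48 against Control without covariates, by the quasi-likelihood test of edgeR 4.0.16 in R 4.3.3, with Benjamini-Hochberg adjustment at 0.05. Exact permutation tests were two-sided on log2 CPM. The correction for GC content subtracted from each library a loess trend (span 0.3) on the GC content of GENCODE release 29 transcripts, known for 16319 genes (99.6%). Positions and promoters are those of RefSeq (GRCh38.p14), whose gene table held 16360 of the genes.

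The members and lists were chosen with earlier results of these data known, and so was the GC correction. The rule named all members and the 3 genes nearest to MYD88 and to MAP3K8. Of each list it named the called genes, at most the 6 with the smallest p. It also named the gene not called with the highest mean CPM in the list. Other genes in the text, among them TLR4, TLR7, LY96, CD14, NFKB1, NFKBIZ, IL1RL1 and TICAM2, were named outside this rule. The alternatives tried were limma 3.58.1 on log2(TPM+1) and log2(TPM+0.1), voom with sample weights, DESeq2 1.42.0, RLE size factors, library sizes alone, other filters, a replicate term and each library left out. The GC correction with each library left out was added to these without being planned. The procedure was run on simulated counts with the same extra spread between libraries set for every gene. That run does not vouch for the calls in these libraries. Files listed no gene with 0 in all libraries, so that an unlisted gene may be such a gene.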

Additional observations from a re-analysis of the deposited data

How the results depend on the processing

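IRAK2 had a log2 fold change of 0.52 to 0.72 in 23 alternatives and was called in 17 of them, and MAP3K8 had 0.51 to 0.91 and was called in 12. The GC correction, with all libraries or with 1 left out, made up 7 of the 23, and both genes were called in all 7. Those with a library left out were not planned at the start. MYD88 was called in 8 of 23, TICAM1 in 3, IRAK4 in 3 and TRAF6 in 2, and TLR2, TLR3 and IRAK1 in none. The sign turned for TLR2 in limma on TPM (−0.11 with a pseudocount of 0.1 and −0.08 with 1). TLR3 ran from −0.35 to 0.02 with 1 library left out, the latter lacking RC48 replicate 1, and turned to 0.16 after GC correction, also with a library left out (0.10 to 0.20, namely 0.16, 0.10 and 0.20 without Control replicates 1, 2 and 3 and 0.16, 0.17 and 0.13 without RC48 replicates 1, 2 and 3). With that correction IRAK1 turned to −0.24 (−0.25, −0.23 and −0.24 without the Control replicates and −0.14, −0.29 and −0.27 without the RC48 replicates). The causes of these changes were not tested.

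The number of pathway genes called, 2, was 1 with RLE size factors, no filter, library sizes alone or at least 10 counts in every library. These settings called 281 of 13055, 276 of 16366, 253 of 13055 and 228 of 12530 genes over all. In limma it was 0 on log2(TPM+0.1) and 4 on log2(TPM+1), beside 1168 and 2637 of 12363 genes. With voom it was 6, beside 8018 of 13055 genes. The voom weights were 3.62, 2.49 and 0.572 for Control replicates 1, 2 and 3, and 0.0968, 0.262 and 7.64 for those of RC48. With the GC correction without RC48 replicate 2 it was 4, beside 2193 of 13185 genes. The number of pathway genes called ran from 0 to 5 with 1 library left out. Genes called in the lists, 20, were 31 in limma on log2(TPM+1) and 53 with voom, and 13 to 36 with 1 library left out. Over all genes, 288 were called, 258 of them higher. The count was 744 with DESeq2, 1168 and 2637 in limma with 0.1 and 1 added to the TPM, 8018 with voom, 978 with the GC correction (542 higher and 436 lower), 1683 and 2193 with that correction without RC48 replicate 1 or 2, and 68 to 3726 with 1 library left out (1862 higher and 1864 lower without RC48 replicate 2). Where a Control library is left out, 2 Control libraries remain.

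Replicate numbers are shared by the labels, but the deviations of same-numbered libraries had correlations of −0.01, −0.12 and 0.01, so that the numbers are not taken to pair them. With the replicate block, 331 genes, 0 of the 9 pathway genes and 19 list genes were called, IRAK2 at 0.68 (adjusted p = 0.0585, edgeR) and MAP3K8 at 0.80 (adjusted p = 0.0667). With the block and the GC correction, 736 genes were called, 2 of them pathway genes, with TLR3 at 0.16 and IRAK1 at −0.24.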

Other observations

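CD14, which hands lipopolysaccharide to TLR4, had summed counts of 18 in Control and 49 with RC48 (log2 fold change 1.44, standard error 0.43, adjusted p = 0.161, edgeR), with every RC48 library above every Control library. IL1RL1, a receptor of the IL-1 family, had 10 and 13 counts and was not tested. TICAM2, the adaptor that joins TLR4 to TICAM1, had 14 and 23 counts and was not tested either.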
